A study of Homo sapiens with 9 samples.

Results

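RELN, which encodes the secreted glycoprotein reelin, was described here together with the genes of its 2 receptors (VLDLR and LRP8, the latter also called ApoER2), the adaptors DAB1 and DAB2 and the receptor chaperone LRPAP1. These 6 genes, of 26485 listed, were taken by symbol from the deposited tables of MDA-MB-231 cells with knockdown of ASAH1, the gene of acid ceramidase. The set was chosen with the values in view: RELN was selected on its large rise with both ASAH1 shRNAs, so the fold changes of the 6 genes against the control shRNA are given as a description, without a p-value. MDA-MB-231 is a human cell line derived from a triple-negative breast cancer. It was grown in DMEM with 10% fetal bovine serum and stably expressed a nonspecific (NS) shRNA, ASAH1 shRNA #1 or ASAH1 shRNA #2. Each group had 3 libraries, called biological replicates by the study. Nothing in the sources used here says that they came from separately derived cultures, so the spread between them may be technical. A single nonspecific hairpin served as the control of both ASAH1 hairpins, and no untransduced cells were among the samples.

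Reelin is known for guiding the layering of migrating neurons in the developing brain. It binds the lipoprotein receptors VLDLR and LRP8, which brings about phosphorylation of DAB1 on their cytoplasmic tails by Src family kinases. DAB2 binds the same kind of tail motif and carries such receptors into clathrin-coated pits, and LRPAP1 (the receptor-associated protein, RAP) is a chaperone of the endoplasmic reticulum that keeps ligands off newly made receptors.

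In these cells RELN transcript went from a trace with NS shRNA to a clear signal with both ASAH1 hairpins, and shRNA #1 gave the higher level. The receptor genes followed the other order. VLDLR was moderately higher with shRNA #1 and more than 3-fold higher with shRNA #2, while LRP8 was lower with shRNA #1 and higher with shRNA #2. DAB2 was lower with shRNA #2, LRPAP1 was lower with shRNA #1, and DAB1 had no read in any library. The rule that chose the genes did not use the contrast between the hairpins, but it used the same knockdown libraries. The choice was also made with earlier results of these data known. Each of the 5 genes with reads differed between shRNA #2 and shRNA #1 beyond the spread of the replicates (edgeR adjusted p below 0.05). So did 63.9% of all genes tested, so such a difference was common.

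RELN lies on the minus strand of chromosome 7 (hg38, 103471381 to 103989658, GENCODE v44) and has 65 exons in its canonical transcript. Its promoter is shown because DNA methylation there is a known way in which the gene is kept silent. The 250 bases before the RefSeq start, at chr7:103989659-103989908 on the minus strand, overlap no annotated exon of RELN. They hold 43 CpG dinucleotides, more than 99.0% of 35116 promoter windows of that length, which had a median of 11. In the RefSeq sequence on hg38 printed here 5′ to 3′, capitals mark the GC box letters GGGCGG and the E-box letters CACGTG.
RELN: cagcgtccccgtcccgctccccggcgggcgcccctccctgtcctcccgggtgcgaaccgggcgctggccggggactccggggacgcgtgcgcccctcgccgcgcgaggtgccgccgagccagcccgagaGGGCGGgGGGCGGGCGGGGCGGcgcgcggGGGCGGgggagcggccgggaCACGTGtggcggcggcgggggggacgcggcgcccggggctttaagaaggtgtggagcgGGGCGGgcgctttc
The GC content of this window is 83.2%, against a median of 58.0% over all windows. GGGCGG occurs 6 times in it, on the strand of the gene, with some copies overlapping, and is present on either strand in 42.6% of all windows. CACGTG, which reads the same on both strands, occurs once, 67 to 72 bases before the start, and is in 6.34% of windows. The letters TGATGNAA, the core of the amino acid response element, were searched on both strands and were absent from it; 3.14% of windows hold them.

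For the receptors a 30-base stretch around GC boxes is shown, since the longer windows overlap annotated exons of the same genes. The VLDLR stretch is chr9:2621720-2621749 on the plus strand and the LRP8 stretch is chr1:53328086-53328115 on the minus strand. Capitals mark GC box letters that lie on the opposite strand, and in VLDLR 2 copies overlap.
VLDLR: ccgcgctcCCGCCCGCCCgccgcgcctccc
LRP8: cccagcctgagcCCGCCCcgccgccgagcg
The whole VLDLR window holds 41 CpG and 2 GC boxes at a GC content of 78.8%, and the LRP8 window holds 31 CpG and 3 GC boxes at 77.2%. The DAB2 window has 18 CpG and 2 GC boxes, and those before the 2 RefSeq starts of LRPAP1 have 26 and 27 CpG. All 6 genes matched the RefSeq table, with 12 starts in all, and neither CACGTG nor TGATGNAA was found before any start of VLDLR, LRP8, DAB2 or LRPAP1. CACGTG was found before a start of DAB1 (position 57424754), 47 to 52 bases upstream, so within the set it is not particular to RELN. These matches describe the letters of the windows, and no factor binding or methylation was measured.

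The libraries held between 23806003 and 49659106 reads on genes (median 34867548). The values are normalized counts, reads divided by a size factor that the authors set separately for the table of each hairpin, so NS shRNA libraries have slightly different values in the 2 tables. ASAH1 went from 4489 ± 45.4 (SD, n = 3) with NS shRNA to 1327 ± 51.9 (n = 3) with shRNA #1, and from 4852 ± 57.9 to 783 ± 22.6 with shRNA #2. In bulk RNA, fewer cells that express a gene and less of its RNA per cell cannot be told apart.

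Marker genes of the line and of other cell types gave a mixed picture. VIM, a mesenchymal marker, had 41873 or more reads in every library. Of the 8 luminal genes, ESR1 and PGR, which encode hormone receptors, had at most 2 reads and FOXA1 at most 6, whereas the keratin genes KRT8 and KRT18 had 3473 or more, ERBB2 1530 or more, EPCAM 652 or more and GATA3 401 or more. The summed level of the luminal list ran from 30107 to 32423 with NS shRNA, 15321 to 16704 with shRNA #1 and 24709 to 28723 with shRNA #2. KRT8 and KRT18 weigh most in this sum, with the highest median reads of the list (8330 and 12282). Of the 5 tested genes of the list, 1 was higher and 4 lower with shRNA #1, and 2 higher and 2 lower with shRNA #2. Of all genes tested, 66.1% had a limma adjusted p below 0.05 with shRNA #1 and 66.9% with shRNA #2. KRT8 was lower with shRNA #1 (log2 fold change −1.5, limma adjusted p = 8.32e-09) and with shRNA #2 (−0.77, adjusted p = 4.32e-07). ERBB2 was also lower with both (−0.69, adjusted p = 2.73e-06 and −0.42, adjusted p = 0.000735). EPCAM was higher with both (0.21, adjusted p = 0.0362 and 0.57, adjusted p = 0.000391). GATA3 was lower with shRNA #1 (−0.48, adjusted p = 0.000145) and higher with shRNA #2 (0.25, adjusted p = 0.00619). KRT18 was lower with shRNA #1 (−0.78, adjusted p = 1.55e-05) and at 0.15 with shRNA #2 (adjusted p = 0.146). Of the 4 mesenchymal genes, EGFR was higher and VIM and CAV1 lower with either hairpin. The defining leukocyte, endothelial and fibroblast genes PTPRC, CDH5 and DCN had at most 8, 3 and 3 reads. CD14 was lower with shRNA #1 (−2.14, adjusted p = 1.06e-07) and at 0.098 with shRNA #2 (adjusted p = 0.356). The collagen gene COL1A2 was lower with shRNA #1 (−1.48, adjusted p = 1.01e-06) and higher with shRNA #2 (0.31, adjusted p = 0.0175). LUM was lower with shRNA #1 (−0.43, adjusted p = 0.00669) and shRNA #2 (−1.76, adjusted p = 9.63e-06). PECAM1 was also lower with shRNA #1 (−0.59, adjusted p = 0.0200) and shRNA #2 (−0.91, adjusted p = 0.00154). Of 10 genes listed as neuron markers, 5 passed the filter on low values. With shRNA #1, SYT1 was higher (log2 fold change 1.60, adjusted p = 2.10e-06, limma) and SNAP25 lower (−0.70, adjusted p = 0.00983). With shRNA #2, SYT1 (1.49, adjusted p = 1.92e-06) and TP73 (0.39, adjusted p = 0.0215) were higher and CALB2 was lower (−0.41, adjusted p = 7.54e-05). GAD1, an enzyme of GABA synthesis with 244 to 594 reads, was at −0.22 with shRNA #1 (adjusted p = 0.0686) and 0.094 with shRNA #2 (adjusted p = 0.368). The 5 genes under the filter had at most 11 reads (TBR1), and the summed level of the neuron list ran from 5483 to 5993 with NS shRNA, 5166 to 5580 with shRNA #1 and 4562 to 4808 with shRNA #2. The part of any of these markers in the RELN values was not tested.

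RELN had 51, 61 and 69 reads in the NS shRNA libraries, 624, 1079 and 743 with shRNA #1 and 377, 369 and 408 with shRNA #2. As normalized counts in the table of shRNA #1, the NS shRNA libraries were at 53.4, 59.9 and 63.7 and the knockdown libraries at 834, 867 and 714. Every knockdown library was far above every control library. The means were 59.0 ± 5.22 and 805 ± 80.5 (SD, n = 3 each), a log2 fold change of 3.75 (SE 0.11), or 13.4-fold on the scale of log2(normalized count + 1). In the table of shRNA #2 the NS shRNA libraries were at 57.6, 65.0 and 68.7 and the knockdown libraries at 406, 359 and 316. The groups were again well apart, with means of 63.8 ± 5.65 and 361 ± 45.0 and a log2 fold change of 2.48 (SE 0.13), or 5.57-fold. Among the 11445 genes whose mean over both groups reached 100 in both tables, this fold change ranked 3rd from the highest with shRNA #1 and 19th with shRNA #2. The control means of RELN are under 100, so it entered this ranking only through its knockdown libraries. These ranks describe what RELN was selected on.

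**Figure D1:**
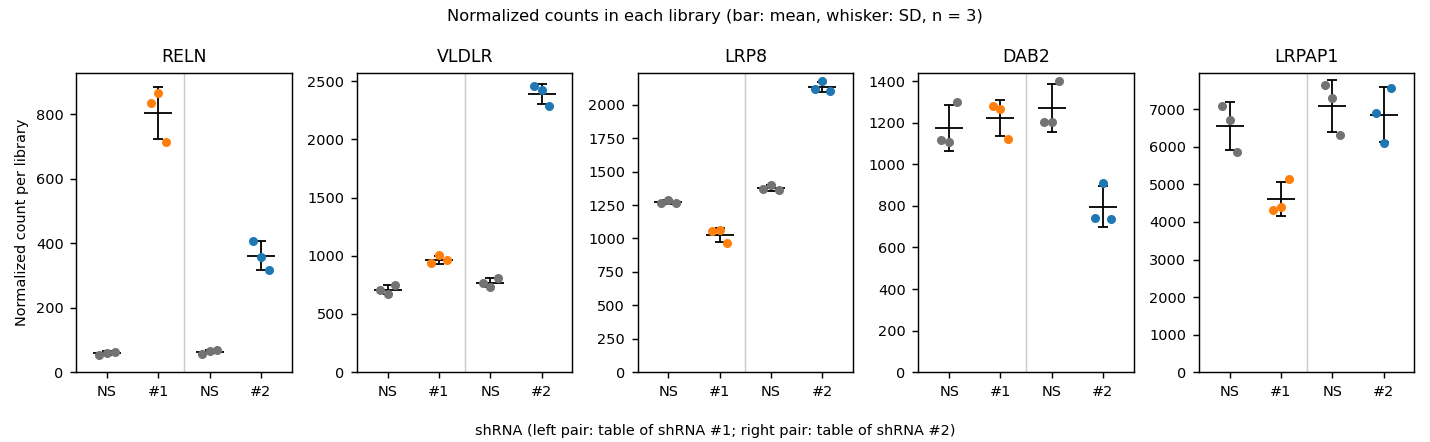
Normalized counts of RELN, VLDLR, LRP8, DAB2 and LRPAP1 in each library (vertical axes from 0), with NS shRNA and ASAH1 shRNA #1 from one table on the left of each panel and NS shRNA and ASAH1 shRNA #2 from the other on the right. Points are libraries, bars the mean and whiskers the SD (n = 3). RELN rises from about 59.0 to 805 and from 63.8 to 361, and only DAB2 with shRNA #1 and LRPAP1 with shRNA #2 overlap their controls.

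RELN also differed between the hairpins. On the reads of all 9 libraries put on one scale, shRNA #1 libraries lay between 745 and 906 and shRNA #2 libraries between 306 and 392. The level was 2.44-fold higher with shRNA #1 (log2 ratio of shRNA #2 to shRNA #1 −1.29, SE 0.10, approximate 95% interval −1.49 to −1.09, edgeR quasi-likelihood test, adjusted p = 8.30e-07). ASAH1 itself was lower with shRNA #2 than with shRNA #1 (log2 ratio −0.89, SE 0.05, adjusted p = 6.84e-08), so the hairpin with the lower ASAH1 level had the lower RELN level of the 2. This comparison uses the same knockdown libraries from which RELN was chosen, although not the contrast.

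VLDLR, on the plus strand of chromosome 9 (2621182 to 2660056, 19 exons in the canonical transcript), encodes the receptor that also takes up triglyceride-rich lipoproteins. In the table of shRNA #1 the control libraries were at 710, 671 and 748 normalized counts and the knockdown libraries at 935, 1005 and 961. The groups did not overlap, with means of 710 ± 38.3 and 967 ± 35.5 and a log2 fold change of 0.45 (SE 0.07), or 1.36-fold. With shRNA #2 the step was larger. The control libraries were at 766, 729 and 806 and the knockdown libraries at 2455, 2427 and 2291, means of 767 ± 38.8 and 2391 ± 87.5, a log2 fold change of 1.64 (SE 0.07), or 3.12-fold. VLDLR was 2.27-fold higher with shRNA #2 than with shRNA #1 (log2 ratio 1.18, SE 0.06, 95% interval 1.07 to 1.29, edgeR adjusted p = 2.01e-08), the opposite order to RELN.

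LRP8, on the minus strand of chromosome 1 (53242364 to 53328469, 19 exons), encodes the receptor best known from neurons. With shRNA #1 it was lower in all 3 libraries, at 1058, 1060 and 967 normalized counts against 1267, 1291 and 1267 with NS shRNA. The means were 1028 ± 53.3 and 1275 ± 14.1, a log2 fold change of −0.31 (SE 0.06). With shRNA #2 it was higher in all 3, at 2116, 2176 and 2105 against 1368, 1402 and 1366. The means were 2132 ± 38.2 and 1378 ± 20.4, a log2 fold change of 0.63 (SE 0.06), or 1.55-fold. Neither pair of groups overlapped, so the hairpins moved this receptor gene in opposite directions, and the difference between them was 1.90-fold (log2 ratio 0.93, SE 0.05, 95% interval 0.82 to 1.03, edgeR adjusted p = 6.84e-08).

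**Figure D2:**
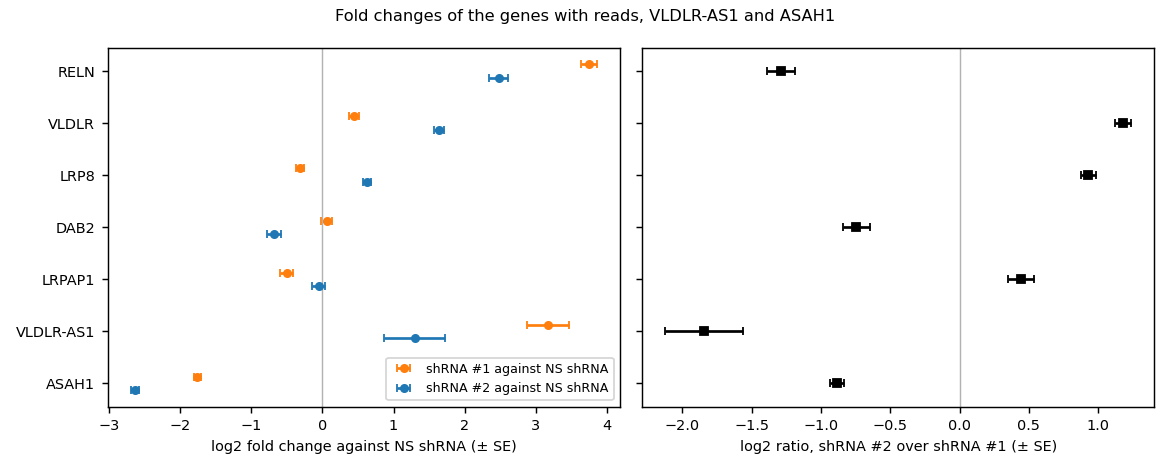
Left, log2 fold changes against NS shRNA (horizontal axis, whiskers ± SE) of the 5 genes with reads, VLDLR-AS1 and ASAH1 for shRNA #1 (orange) and shRNA #2 (blue). Right, the log2 ratio of shRNA #2 to shRNA #1 on recovered reads (± SE): RELN (−1.29), DAB2 (−0.74), VLDLR-AS1 and ASAH1 lie left of 0 and VLDLR (1.18), LRP8 (0.93) and LRPAP1 (0.44) right of it.

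DAB1, on the minus strand of chromosome 1 (56994778 to 58546734), is the adaptor that relays the reelin signal from the receptors. It had 0 reads in all 9 libraries, and so had DAB1-AS1, the gene listed for its opposite strand. A count of 0 allows up to 3 reads per library, an RPM (reads scaled to the reads on genes) of 0.126 in the smallest library and 0.0604 in the largest (counting error only), so lower levels were not detectable at this depth. No fold change can be given for it.

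DAB2, on the minus strand of chromosome 5 (39371675 to 39462300, 15 exons), encodes an endocytic adaptor and is expressed outside the nervous system. In the table of shRNA #1 the control libraries were at 1115, 1109 and 1301 normalized counts and the knockdown libraries at 1281, 1268 and 1123, which overlap. The means were 1175 ± 109 and 1224 ± 87.4 and the log2 fold change 0.061 (SE 0.08). With shRNA #2 the knockdown libraries were at 740, 911 and 738 against 1203, 1204 and 1403, without overlap. The means were 796 ± 99.0 and 1270 ± 115, a log2 fold change of −0.68 (SE 0.10). Between the hairpins the level was 1.68-fold higher with shRNA #1 (log2 ratio of shRNA #2 to shRNA #1 −0.74, SE 0.10, 95% interval −0.93 to −0.56, edgeR adjusted p = 3.80e-05).

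LRPAP1, on the minus strand of chromosome 4 (3503612 to 3532446, 8 exons), had the most reads of the 6 genes. With shRNA #1 its libraries were at 4319, 4407 and 5142 normalized counts, below the control libraries at 7090, 6723 and 5854. The means were 4622 ± 452 and 6555 ± 635, a log2 fold change of −0.50 (SE 0.09). With shRNA #2 the libraries were at 6902, 6095 and 7560 and overlapped the controls at 7650, 7298 and 6311, with means of 6852 ± 734 and 7087 ± 694 and a log2 fold change of −0.049 (SE 0.09). The 1.36-fold difference between the hairpins (log2 ratio 0.44, SE 0.10, 95% interval 0.25 to 0.63) passed the test with an edgeR adjusted p of 0.00184.

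Of the 6 genes, 5 passed the filter on low values in each comparison. With shRNA #1, 4 of the 5 had an adjusted p below 0.05 (2 higher and 2 lower), where 66.1% of the 14341 genes tested did (32.8% higher, 33.3% lower). With shRNA #2 it was also 4 of 5 (3 higher and 1 lower), beside 66.9% of 14250 genes (33.5% higher, 33.4% lower). Since these contrasts chose the genes, nothing is read from the counts. Between the hairpins all 5 tested genes passed, 3 higher and 2 lower with shRNA #2, beside 63.9% of 14381 genes (31.4% higher, 32.5% lower). More of the tested genes passed than did not in each comparison. The 3 comparisons share libraries, and both knockdown comparisons share the same NS shRNA libraries.

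Per length of annotated exon, LRPAP1 had the highest level in each group and RELN the lowest of the genes with reads. Levels are given as RPKM, the reads of a gene scaled by its exon length and by the reads on genes of the library. With NS shRNA the RPKM were 17.2 ± 1.60 for LRPAP1, 4.71 ± 0.45 for DAB2, 2.01 ± 0.023 for LRP8, 1.33 ± 0.075 for VLDLR and 0.052 ± 0.0047 for RELN (SD, n = 3), and no neighbours in this order overlapped. Thus in the control cells the level of either receptor gene was far above that of the ligand gene. With shRNA #1 the RPKM were 12.3 ± 1.18 for LRPAP1, 4.97 ± 0.36 for DAB2, 1.83 ± 0.064 for VLDLR, 1.64 ± 0.087 for LRP8 and 0.712 ± 0.072 for RELN. In RPKM, VLDLR stood above LRP8 in every library there, the reverse of the control order. That order rests on the exon lengths used (16507 bases for VLDLR and 19668 for LRP8). In normalized counts LRP8 was the higher of the pair with shRNA #1 (1028 against 967). The lengths are from GENCODE, while the reads were counted on UCSC genes, so this close order is uncertain. With shRNA #2 they were 15.1 ± 1.53 for LRPAP1, 3.78 ± 0.15 for VLDLR, 2.83 ± 0.070 for LRP8, 2.69 ± 0.35 for DAB2 and 0.266 ± 0.033 for RELN. Only LRP8 and DAB2 overlapped in that group, and the level of DAB1 was 0 in all 3 groups.

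**Figure D3:**
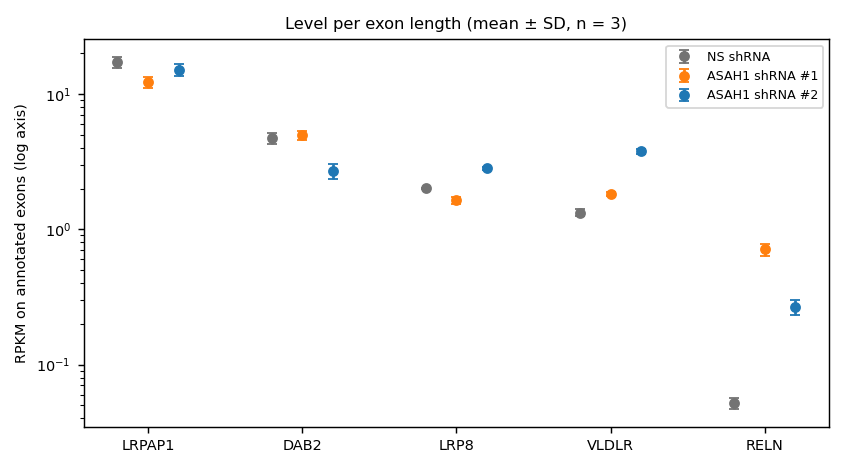
Level of each gene with reads in RPKM on annotated exons (log axis) for NS shRNA (grey), ASAH1 shRNA #1 (orange) and ASAH1 shRNA #2 (blue), as mean ± SD of 3 libraries. RELN stays below the receptor genes in all groups, at 0.052, 0.712 and 0.266. Per length, VLDLR stands above LRP8 with either ASAH1 shRNA, an order that with shRNA #1 rests on the exon lengths used.

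VLDLR has an annotated long noncoding gene on its other strand, VLDLR-AS1 (chromosome 9, 2421597 to 2622457, minus strand), and 9 of its 14 annotated transcripts start within 1000 bases of the RefSeq start of VLDLR. Reads were counted by strand, so the reads of both genes were kept apart. VLDLR-AS1 had 7, 4 and 9 reads with NS shRNA, 44, 92 and 64 with shRNA #1 and 10, 21 and 34 with shRNA #2. It was scarce in the controls and highest with shRNA #1, the hairpin with the smaller change of VLDLR. The normalized counts went from 6.52 ± 2.30 to 64.7 ± 8.04 with shRNA #1 (log2 fold change 3.17, SE 0.30) and from 7.04 ± 2.47 to 19.2 ± 7.87 with shRNA #2 (1.30, SE 0.43). The control means are under the filter of 10, so the gene entered each table only through its knockdown libraries, and these differences are given as values without a test. Between the hairpins VLDLR-AS1 was 3.59-fold higher with shRNA #1 (log2 ratio of shRNA #2 to shRNA #1 −1.84, SE 0.28, edgeR adjusted p = 0.000140).

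**Figure D4:**
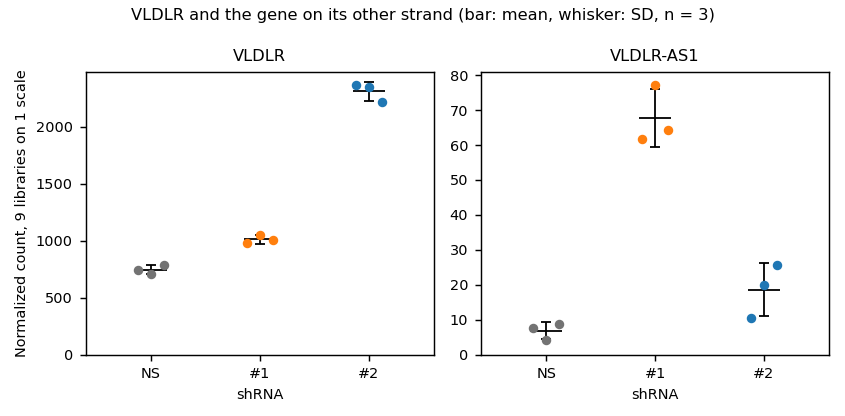
Normalized counts of VLDLR (left) and VLDLR-AS1 (right) in the 9 libraries on one scale, vertical axes from 0, with points for libraries, bars for means and whiskers for the SD (n = 3). VLDLR is highest with shRNA #2 and VLDLR-AS1 with shRNA #1, where its libraries had 44 to 92 reads.

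Around 5 of the 6 loci, neighbours within 500 kb were counted (all but DAB1, which had no reads), and they did not all go the same way. They were matched by current symbol only, so a neighbour listed under an older symbol is missing from these counts. Of all genes tested, 66.1% were called with shRNA #1 and 66.9% with shRNA #2, in nearly equal shares up and down, so no locus is singled out by these counts. Near RELN, 9 other genes were tested. With shRNA #1, 4 of them rose and 2 fell (log2 fold changes from −0.55 to 1.20), and with shRNA #2, 2 rose and 2 fell (−0.63 to 0.90). None came near the fold change of RELN. Beside VLDLR-AS1 the only tested neighbour of VLDLR found by current symbol was SMARCA2, a chromatin remodelling ATPase. SMARCA2 fell with shRNA #1 (−0.83, adjusted p = 1.47e-06) and was at 0.027 with shRNA #2 (adjusted p = 0.697). Near LRP8, 2 of 9 genes rose and 5 fell with shRNA #1, and 2 rose and 2 fell with shRNA #2. The tested neighbours of DAB2 found by current symbol were OSMR, a cytokine receptor gene (−0.28, adjusted p = 0.0267 with shRNA #1 and 0.43, adjusted p = 0.00438 with shRNA #2), and RICTOR, a subunit of a TOR complex (0.29, adjusted p = 0.00825 and 0.58, adjusted p = 8.82e-05). Both were higher with shRNA #2, where DAB2 was lower. Near LRPAP1, 1 of 5 genes rose and 3 fell with shRNA #1 (−0.96 to 1.72), and 2 rose and 2 fell with shRNA #2 (−0.59 to 1.18).

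By the distance between pairs of log2 fold changes, over 11445 genes and 3 groups of 3 libraries, the genes nearest to RELN were ADM2 (3.66 with shRNA #1 and 2.29 with shRNA #2, distance 0.210), ATF3 (3.53 and 2.29), PSG7 (3.39 and 2.37), CHAC1 (3.30 and 2.71) and GADD45A (3.08 and 2.87, distance 0.776). ADM2 is a peptide hormone, ATF3 a stress-induced transcription factor, CHAC1 an enzyme that breaks down glutathione and GADD45A a growth arrest gene. PSG7 belongs to a family of near-identical copies, so its reads are uncertain. Nearest to VLDLR were LRRC42 (0.48 and 1.60, distance 0.0534), BMI1 (0.51 and 1.62), MIR22HG (0.44 and 1.52), SAT1 (0.53 and 1.55) and JMJD6 (distance 0.145). BMI1 is a Polycomb protein and SAT1 an enzyme of polyamine breakdown. None of the other genes of the reelin set is among these.

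The rest of the pathway was followed through 10 lists of 103 genes. With shRNA #1, 94 were tested, of which 28 rose and 42 fell, or 74.5% called beside 66.1% of all genes tested. The median log2 fold change was −0.10, against 0.0013 over all genes. With shRNA #2, 95 were tested, of which 42 rose and 30 fell, or 75.8% beside 66.9%. The median was 0.15, against 0.013 over all genes. Each list gene said to rise or fall had a limma adjusted p below 0.05, and paired values are given for shRNA #1 first and shRNA #2 second.

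**Figure D5:**
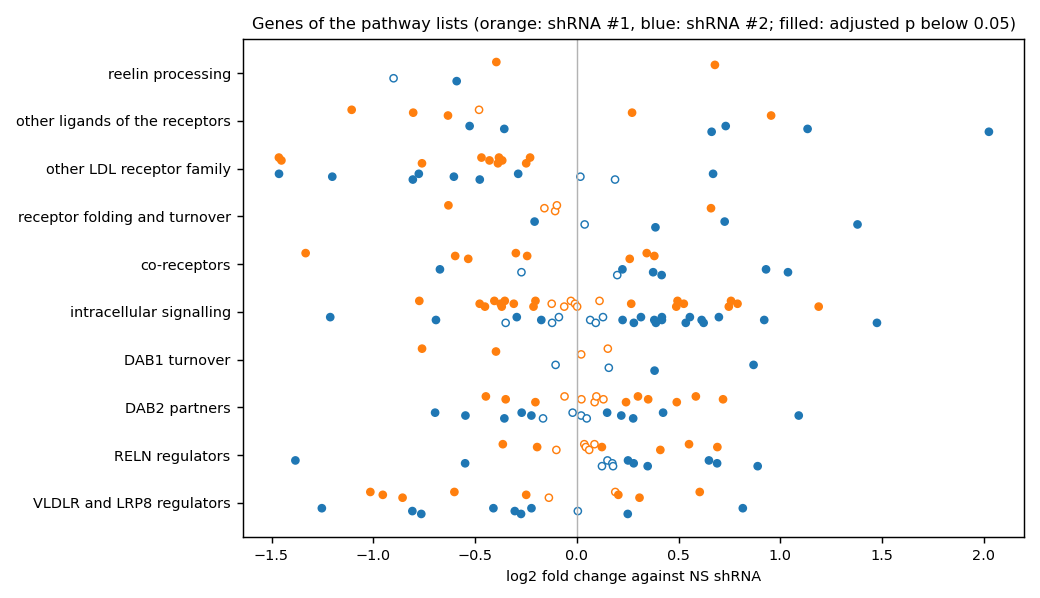
Log2 fold changes against NS shRNA (horizontal axis) of the tested genes of the 10 pathway lists (rows) for shRNA #1 (orange) and shRNA #2 (blue). Each point is a gene, filled where its limma adjusted p is below 0.05. All 10 tested genes of the list of other LDL receptor family genes, which leaves out VLDLR and LRP8, lie left of 0 with shRNA #1.

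The relatives of VLDLR and LRP8 in the LDL receptor family mostly fell. With shRNA #1 all 10 tested relatives of 12 fell, beside 33.3% of all genes tested, with a median log2 fold change of −0.41. With shRNA #2, 7 fell and 1 rose, beside 33.4% and 33.5% of all genes, with a median of −0.54. Without shRNA #2 replicate 3 or NS shRNA replicate 3, 2 rose. LRP5, a WNT co-receptor, fell from 10643 ± 410 to 3859 ± 205 normalized counts with shRNA #1 (−1.46, adjusted p = 4.02e-08) and from 11504 ± 465 to 6725 ± 522 with shRNA #2 (−0.78, adjusted p = 2.41e-06). SORL1, a sorting receptor, fell with both (−1.45, adjusted p = 2.79e-07 and −0.81, adjusted p = 2.04e-06). LRP1, the large endocytic receptor, fell less with shRNA #1 (−0.43, adjusted p = 0.000665) than with shRNA #2 (−1.20, adjusted p = 1.38e-06), and the hairpins differed (edgeR log2 ratio −0.78, adjusted p = 1.35e-05). LRP4, an agrin receptor, fell in the same order (−0.47, adjusted p = 0.00405 and −1.46, adjusted p = 4.01e-06, edgeR log2 ratio −1.01, adjusted p = 3.21e-05).

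Of 7 other ligands of these receptors, 6 were tested, all but SELENOP, which was not listed under its current symbol. With shRNA #1, 2 rose and 3 fell, and with shRNA #2, 4 rose and 2 fell. THBS1 (thrombospondin 1), a matrix protein that binds both reelin receptors, rose by 0.27 (adjusted p = 0.00522) and 0.66 (adjusted p = 9.59e-06). CLU (clusterin), a secreted chaperone, fell (−1.11, adjusted p = 2.96e-07 and −0.36, adjusted p = 0.000201), as did TFPI, an inhibitor of coagulation (−0.80, adjusted p = 1.71e-06 and −0.53, adjusted p = 2.23e-05). LPL, lipoprotein lipase, went from 80.1 ± 14.7 to 51.3 ± 9.20 with shRNA #1 (−0.63, adjusted p = 0.0157) and from 86.6 ± 15.6 to 352 ± 9.46 with shRNA #2 (2.02, adjusted p = 6.49e-07). The LPL call with shRNA #1 was lost without shRNA #1 replicate 1 or NS shRNA replicate 3 (adjusted p of 0.0523 and 0.0541).

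Of the 5 genes of reelin processing, ADAMTS3 and FURIN passed the filter in both tables. FURIN, a proprotein convertase, fell with both hairpins (−0.40, adjusted p = 0.000147 and −0.59, adjusted p = 2.59e-05). ADAMTS3, a reelin-cleaving protease, was low, at 18.2 ± 4.89 with NS shRNA and a log2 fold change of 0.68 with shRNA #1 (adjusted p = 0.0465). This call was lost without any single shRNA #1 library or NS shRNA replicate 1, by DESeq2, without the filter on low values and in the limma fit of all 9 libraries. With shRNA #2 its fold change was −0.90 (adjusted p = 0.0711), and without NS shRNA replicate 1, 2 genes of the list were lower in place of 1. Of the 5 genes of receptor folding and turnover, 1 rose and 1 fell with shRNA #1, and 3 rose and 1 fell with shRNA #2. The lower count was 2 with shRNA #1 without replicate 3 of either group, and 0 with shRNA #2 without replicate 1 or 2 of either group. MYLIP, the ubiquitin ligase that marks lipoprotein receptors for degradation, was at −0.10 with shRNA #1 (adjusted p = 0.276) and rose by 0.73 with shRNA #2 (adjusted p = 1.77e-05).

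All 8 co-receptor genes were tested. With shRNA #1, 3 rose and 5 fell, and with shRNA #2, 5 rose and 1 fell. ITGA3, the integrin subunit named as a reelin receptor, rose from 43708 ± 1109 to 56899 ± 1094 normalized counts with shRNA #1 (0.38, adjusted p = 3.27e-05) and from 47245 ± 1249 to 97003 ± 4271 with shRNA #2 (1.04, adjusted p = 8.90e-08). EFNB2, an ephrin, rose by 0.34 (adjusted p = 0.00417) and 0.93 (adjusted p = 4.46e-07). EPHB2, an ephrin receptor, rose by 0.26 (adjusted p = 0.000712) and 0.22 (adjusted p = 0.00335), and EFNB3, another ephrin, fell (−1.33, adjusted p = 0.00164 and −0.67, adjusted p = 0.00866). NRP1, a semaphorin and VEGF co-receptor, and APP, the amyloid precursor, fell with shRNA #1 (−0.30, adjusted p = 0.000455 and −0.24, adjusted p = 0.000634) and rose with shRNA #2 (0.42, adjusted p = 0.000126 and 0.37, adjusted p = 5.27e-05).

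Of the 25 genes of intracellular signalling, 24 were tested, with 8 higher and 10 lower with shRNA #1 and 14 higher and 4 lower with shRNA #2. CDK5R1, which encodes the p35 activator of the kinase CDK5, rose with both (0.79, adjusted p = 1.05e-05 and 1.47, adjusted p = 6.76e-08), whereas CDK5 itself fell (−0.77, adjusted p = 0.000473 and −1.21, adjusted p = 9.97e-06). CDH2 (N-cadherin) rose from 43.4 ± 8.25 to 99.2 ± 9.42 with shRNA #1 (1.19, adjusted p = 0.000250) and from 46.9 ± 9.08 to 75.9 ± 6.84 with shRNA #2 (0.70, adjusted p = 0.00745). PIK3R1, a regulatory subunit of PI3 kinase, rose by 0.76 and 0.92 (adjusted p of 8.68e-05 and 1.48e-05). The Src family genes that act on DAB1 rose with both, FYN by 0.75 and 0.54, SRC by 0.27 and 0.22 and YES1 by 0.49 and 0.62. NCK2, an SH2 and SH3 adaptor, fell with shRNA #1 (−0.37, adjusted p = 8.86e-05) and rose with shRNA #2 (0.56, adjusted p = 5.83e-06). Among the 4 genes of DAB1 turnover, 2 fell with shRNA #1 and 2 rose with shRNA #2, and SOCS7, a subunit of the ligase that degrades DAB1, was in both counts (−0.40 and 0.38). Without NS shRNA replicate 1, 1 gene of that list fell with shRNA #2.

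The 14 DAB2 partners were all tested. With shRNA #1, 6 rose and 3 fell, and with shRNA #2, 5 rose and 5 fell. Without replicate 1 or 2 of shRNA #2 or of NS shRNA, 3 rose with shRNA #2 in place of 5. The number that rose with shRNA #1 ranged from 4 to 8 with single libraries left out. EPS15, an endocytic adaptor that binds DAB2, rose with both (0.72, adjusted p = 8.22e-06 and 1.09, adjusted p = 2.51e-07), and EPS15L1 rose by 0.58 and 0.22. AP2A1, a subunit of the clathrin adaptor AP2, fell (−0.20, adjusted p = 0.00221 and −0.70, adjusted p = 1.66e-06), as did DAB2IP, a GTPase-activating protein (−0.45 and −0.22). MYO6, the myosin motor that DAB2 recruits, rose with shRNA #1 (0.49, adjusted p = 3.77e-05) and fell with shRNA #2 (−0.27, adjusted p = 0.00321).

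Of the 13 genes known to act on RELN, 4 rose and 2 fell among 11 tested with shRNA #1, and 6 rose and 2 fell among 12 tested with shRNA #2. With shRNA #1, 2 rose in place of 4 without shRNA #1 replicate 1 or 2 or NS shRNA replicate 2, and 1 fell in place of 2 without shRNA #1 replicate 2 or 3. DNMT3A, a de novo DNA methyltransferase, fell with both (−0.36, adjusted p = 0.00412 and −0.55, adjusted p = 0.00113). Its relative DNMT3B went from 283 ± 17 to 376 ± 19.1 with shRNA #1 (0.41, adjusted p = 0.00189) and from 306 ± 17.4 to 116 ± 3.72 with shRNA #2 (−1.38, adjusted p = 1.29e-06). SNAI1 and ZEB1, repressors of epithelial genes, rose with both, SNAI1 by 0.69 and 0.89 at 28.1 ± 7.44 normalized counts in the controls of shRNA #1, and ZEB1 by 0.55 and 0.65. HDAC2, a histone deacetylase, rose by 0.12 and 0.28. With shRNA #1 the call of HDAC2 was lost without any shRNA #1 library or NS shRNA replicate 2 (adjusted p of 0.0670 to 0.127). That of SNAI1 was lost without shRNA #1 replicate 1 or 2 or NS shRNA replicate 2 or 3 (adjusted p of 0.0680 to 0.0803).

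All 10 genes known to act on VLDLR or LRP8 were tested. With shRNA #1, 3 rose and 5 fell, and with shRNA #2, 2 rose and 7 fell. ATF4, the amino acid response factor, rose from 4905 ± 211 to 7455 ± 328 with shRNA #1 (0.60, adjusted p = 7.13e-06) and from 5303 ± 246 to 9336 ± 555 with shRNA #2 (0.82, adjusted p = 1.20e-06). The liver X receptor genes NR1H3 (−1.01, adjusted p = 2.02e-05 and −1.25, adjusted p = 3.56e-07) and NR1H2 (−0.86 and −0.76) and the sterol regulator SREBF1 (−0.95, adjusted p = 1.96e-07 and −0.81, adjusted p = 3.13e-06) fell with both. PPARG, a nuclear receptor of lipid metabolism, rose with shRNA #1 (0.31, adjusted p = 0.000404) and fell with shRNA #2 (−0.22, adjusted p = 0.0108). The lists of regulators name genes by their textbook roles, and no binding or activity was measured.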

How the data were processed

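RNA of 9 MDA-MB-231 libraries was sequenced (strand-specific dUTP libraries on an Illumina HiSeq instrument). The labels describe both oligo-dT selection and ribosomal RNA depletion. The submitters' processing notes name Trimmomatic 0.36, STAR 2.7.1a, HTSeq and DESeq2 1.28. Reads were aligned to hg38 and counted on UCSC genes by the reverse strand, although the study's methods also describe a run of Bowtie2 with RSEM and edgeR. The deposited values are a normalized signal, the read count of a gene divided by the size factor of the library, set separately in each of the 2 tables of 6 libraries. The authors' comparison columns (mean, fold change, error, statistic and p-values) were not used. All 9 sample names were matched, with 0 columns left over, and 28 gene symbols turned into dates were restored from the other table.

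Within a tolerance of 0.1 reads, 100% of values were whole reads after division by the step of the library. The recovered NS shRNA reads had 0 differences between tables. Libraries held 30989598 to 34867548 reads on genes with NS shRNA, 23806003 to 39791698 with shRNA #1 and 35653318 to 49659106 with shRNA #2. Each hairpin was compared with NS shRNA by limma 3.58.1 with an intensity trend on log2(normalized count + 1), two-sided, keeping genes whose mean reached 10, with Benjamini-Hochberg adjustment over all genes tested at 0.05. The hairpins were compared by edgeR 4.0.16 (quasi-likelihood, TMM), fitted to all 9 libraries as recovered reads. A rise of a low gene is understated on the log2(count + 1) scale. R 4.3.3, Python 3.11.15, pandas 2.3.3 and matplotlib 3.10.9 were used. The fits were also run on simulated data in which far fewer genes changed than were called here. That run does not show their error rates in these data. Levels per length use the union of GENCODE v44 exons, and promoter windows come from RefSeq on hg38.

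The 6 genes and all lists were chosen with earlier results of these data known. Named are the 6 genes, ASAH1, antisense genes listed by a symbol of the 6, and per list up to 4 genes called in the same direction with both hairpins with the largest mean change, together with genes called in opposite directions, and the 5 nearest patterns of RELN and VLDLR. ADAMTS3, MYLIP, FYN, SRC, YES1, SMARCA2, OSMR, RICTOR and the marker genes were named after their values were seen. Some items that the rule also covers are counted in the lists but not reported here. MESD was matched under the older symbol MESDC2. SELENOP was matched to SELP, an alias that is also the symbol of P-selectin, so that entry may not be SELENOP. SELP had at most 3 reads and was not tested. Tried as alternatives were other pseudocounts (0.1 and 5), filters (above 0 and from 50), scalings and length (longest transcript), limma without its trend or on all 9 libraries, edgeR and DESeq2 1.42.0, a replicate block, the 6 knockdown libraries alone between the hairpins, and each library left out.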

Additional observations from a re-analysis of the deposited data

Results flagged for a closer look

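The genes below differed between the hairpins by the edgeR test on recovered reads, and each value is the log2 ratio of shRNA #2 to shRNA #1. Of the reelin set these were RELN (−1.29), VLDLR (1.18), LRP8 (0.93), DAB2 (−0.74) and LRPAP1 (0.44), and VLDLR-AS1 (−1.84) was added to them. Of the pathway lists these included genes that passed in opposite directions with the hairpins: LPL (2.62), NRP1 (0.71), APP (0.61), NCK2 (0.92), SOCS7 (0.77), MYO6 (−0.77), DNMT3B (−1.82) and PPARG (−0.54). The adjusted p ranged from 1.89e-08 for NCK2 to 0.00184 for LRPAP1. With 63.9% of all tested genes passing in this comparison, such a difference was common. Groups of 3 libraries were too small to search for outlying libraries.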

How the results depend on the processing

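Of 240 alternative values for the 5 genes with reads, 238 kept their direction and their side of the threshold. The exceptions were both in LRPAP1, shRNA #2 against NS shRNA (−0.049), which ranged from −0.13 to 0.032 with single libraries left out and was 0.032 without shRNA #2 replicate 2 and 0.0082 without NS shRNA replicate 1. RELN ranged from 3.66 to 3.83 with shRNA #1, from 2.39 to 2.57 with shRNA #2 and from −1.38 to −1.20 between the hairpins. With single libraries left out, the pathway lists gave 23 to 30 genes higher and 39 to 43 lower with shRNA #1, and 39 to 47 higher and 28 to 31 lower with shRNA #2. Of 1917 alternative values for the named pathway genes, 38 lost and 7 gained a call and none changed direction.

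The replicate numbers did not pair the NS shRNA libraries with the knockdown libraries. The correlation of deviations ran from −0.304 to 0.201 over 9 pairs with the same number and from −0.127 to 0.263 over 18 others. All same-number pairs with NS shRNA were negative. Between the hairpins the same-number pairs were at 0.053, 0.093 and 0.201 and the others from −0.127 to 0.050. Whether the numbers pair the libraries of the hairpins is therefore not settled. With the replicate number as a block the counts of the 5 genes were the same (2 higher and 2 lower with shRNA #1, 3 higher and 1 lower with shRNA #2), and the pathway lists gave 24 higher and 38 lower with shRNA #1 and 39 higher and 27 lower with shRNA #2. RELN was at −1.29 between the hairpins with the block. Calls of PPARG and EPS15L1 with shRNA #2 (adjusted p of 0.0512 and 0.0516) and of HDAC2 with shRNA #1 (adjusted p = 0.127) did not pass with the block, which gave 2 DAB2 partners higher with shRNA #2 in place of 5, and 0 genes of reelin processing higher with shRNA #1 in place of 1. Without the limma trend or with upper quartile rescaling, 3 DAB2 partners were higher and 2 co-receptor genes lower with shRNA #2 (main values 5 and 1).

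Per kilobase of the longest transcript instead of all exons, the levels with NS shRNA, shRNA #1 and shRNA #2 were 0.124, 1.71 and 0.639 for RELN, 2.38, 3.29 and 6.77 for VLDLR, 3.67, 3.00 and 5.17 for LRP8, 8.01, 8.45 and 4.58 for DAB2 and 19.4, 13.9 and 17.1 for LRPAP1, with the same order in each group. These shifts follow from the lengths alone, and both kinds of length are from GENCODE v44. In the limma fit of all 9 libraries, 2 genes of reelin processing were lower with shRNA #2 in place of 1. Depth limits VLDLR-AS1 (4 to 9 reads in the controls) and DAB1 (0 reads).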
